A study of Mus musculus with 12 samples.

Results

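The integrin genes of T cells were examined across mouse spleen cells cultured with different cytokines: Itgae, which encodes the CD103 (αE) chain, and 8 other integrin chain genes, Itgb7, Itga4, Itgb1, Itgal, Itgb2, Itgav, Itgb3 and Itgb8. The genes were chosen by name, and all 9 were found among the 47643 genes of the table. Bulk RNA sequencing covered 12 libraries, 3 in each of 4 groups, from cells labelled as splenic naive CD4 T cells of C57BL/6 mice. All cells had been activated through plate-bound anti-CD3 and anti-CD28 (2 μg/ml of each) and were collected on day 3. The groups were cells lacking TNF receptor 2 (Tnfr2-/-, gene Tnfrsf1b) with 20 ng/ml TNF plus 2 ng/ml TGF-β, wild-type (WT) cells with the same TNF+TGF-β, WT cells with 20 ng/ml IL-6 plus 2 ng/ml TGF-β, and WT cells without added cytokine (Th0). Neither Tnfr2-/- cells without cytokines nor cells with TGF-β alone were analysed here. The samples of a group are labelled as triplicates without mention of separate mice or cultures. The p-values thus set each difference only against the spread of these samples, and that spread may be technical.

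Integrins are pairs of 1 α and 1 β chain that sit in the cell membrane and hold cells to other cells or to the matrix. CD103 pairs with the β7 chain and binds E-cadherin on epithelial cells, and it is known as a TGF-β-induced marker of T cells that stay in epithelia. The β7 chain also pairs with the α4 chain to give the receptor for the gut vessel ligand MAdCAM-1, and α4 with the β1 chain gives the receptor for VCAM-1 and fibronectin. The αL and β2 chains form LFA-1, the receptor for ICAM-1 on antigen-presenting cells. The αV chain pairs with β3 to bind vitronectin and osteopontin, and with β8 to release TGF-β from its latent complex.

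Estimated depth was 16700000 to 23900000 fragments per library. Levels are FPKM, fragments scaled to transcript length and to the mapped fragments of a library, so that levels of different genes can be compared per length. Tnfrsf1b stood at 3.19 to 4.87 FPKM in the Tnfr2-/- libraries and at 70.77 to 108.17 FPKM in the WT libraries given TNF+TGF-β, a ratio of means of 0.0465. The label of CD4 T cells was only partly met, because Cd8a was above Cd4 in 11 of the 12 libraries. The Tnfr2-/- libraries stood apart from all WT libraries in the summed markers of B cells and of myeloid cells. Their 8 B cell markers summed to 2101 to 4605 FPKM, against 282 to 366 FPKM in WT TNF+TGF-β, 430 to 962 FPKM in WT IL-6+TGF-β and 870 to 1335 FPKM in Th0 libraries. Their 10 macrophage and myeloid markers summed to 267 to 1524 FPKM, against 100.05 to 170 FPKM in WT TNF+TGF-β, 30.0 to 86.9 FPKM in WT IL-6+TGF-β and 115 to 172 FPKM in Th0 libraries. That sum was mostly Lyz2 and S100a8, at 1310 and 94.85 FPKM in the Tnfr2-/- library numbered 1. Csf1r and Adgre1 were also above every WT library, while Mpeg1, Cd14 and Cd68 overlapped WT libraries. The T cell side differed as well. The 6 T cell genes (Cd3e, Cd3g, Cd4, Zbtb7b, Cd8a and Cd8b1) of the Tnfr2-/- libraries summed to 616 to 1047 FPKM, against 1355 to 1495 FPKM in WT TNF+TGF-β, 1106 to 1185 FPKM in WT IL-6+TGF-β and 1122 to 1453 FPKM in Th0 libraries. The summed B cell markers were thus far higher and the summed T cell genes lower in Tnfr2-/- libraries. Among WT groups the B cell sum was lowest with TNF+TGF-β. Fcer2a alone of these markers was lower with IL-6+TGF-β, at a mean of 3.31 FPKM against 20.2 FPKM with TNF+TGF-β. Marker sums of dendritic cells stayed at or under 12.4 FPKM, of NK cells at or under 6.05 FPKM and of platelets at or under 4.02 FPKM in every library. Mast cell markers summed to at most 23.7 FPKM, with the protease genes Mcpt4 and Tpsb2 at 0 in all libraries.

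Windows of 250 bases just upstream of the annotated start are shown for 2 members that differ in how they moved with the cytokines, Itgb7, which was higher with both cytokine pairs than in Th0, and Itga4, which passed no test between WT groups. The sequences are from RefSeq on GRCm38.p6, where 5 of the 9 members were matched (Itgb7, Itga4, Itgb1, Itgav and Itgb8), and read 5′ to 3′ on the gene's strand. Itgae, Itgal, Itgb2 and Itgb3 are named only. Capitals mark the SMAD box CAGAC or its reverse complement GTCTG, and the RUNX core TGTGGT or its reverse complement ACCACA. The Itgb7 window lies at chr15:102231936-102232185 on the minus strand and the Itga4 window at chr2:79255176-79255425 on the plus strand.
Itgb7: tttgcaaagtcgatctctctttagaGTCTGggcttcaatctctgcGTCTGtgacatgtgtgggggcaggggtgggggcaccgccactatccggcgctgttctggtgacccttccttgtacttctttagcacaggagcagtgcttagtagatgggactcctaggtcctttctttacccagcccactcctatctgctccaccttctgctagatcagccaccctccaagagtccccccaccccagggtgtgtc
Itga4: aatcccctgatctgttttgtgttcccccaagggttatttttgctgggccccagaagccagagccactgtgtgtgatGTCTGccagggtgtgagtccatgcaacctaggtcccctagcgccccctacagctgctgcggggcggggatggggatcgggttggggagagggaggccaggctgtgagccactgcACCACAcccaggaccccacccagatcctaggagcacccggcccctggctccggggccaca
The Itgb7 window held 2 SMAD boxes and 0 RUNX cores, and the Itga4 window held 1 of each. A SMAD box was present in 42.2% and a RUNX core in 14.0% of 32851 such windows of all genes. The Itgb1 window held 3 SMAD boxes, the Itgb8 window 1 and the Itgav window 0. These matches are letters in a short window and say nothing of binding.

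Of the 9 members, 8 had at least 1 FPKM in at least 3 libraries and entered the test, limma on log2(FPKM + 1) over all 12 libraries, with Benjamini-Hochberg adjustment over 13082 genes. Itgb3 entered only through the Th0 libraries, and Itgb8, under 1 FPKM in every library, did not enter. Between Tnfr2-/- and WT cells given TNF+TGF-β, 4 of the 8 were called at an adjusted p under 0.05, 1 higher and 3 lower, where 37.4% of all genes were called, 19.9% higher and 17.5% lower. Between TNF+TGF-β and IL-6+TGF-β in WT cells, 2 of 8 were called, both higher, against 12.8% of all genes, 7.31% higher and 5.5% lower. Between TNF+TGF-β and Th0 in WT cells, 7 of 8 were called, 6 higher and 1 lower, against 31.7% of all genes, 18.7% higher and 13% lower. Between IL-6+TGF-β and Th0 in WT cells, 5 of 8 were called, 4 higher and 1 lower, against 23.2% of all genes, 14.1% higher and 9.15% lower. That last count was 2, Itgae higher and Itgb3 lower, without IL-6+TGF-β replicate 2, without IL-6+TGF-β replicate 3 or without Th0 replicate 1. The median log2 difference of the tested members was -0.23, 0.30, 0.75 and 0.34 in these comparisons in turn, and that of all genes tested 0.00, 0.00, 0.07 and 0.04. B cell markers moved in the same comparisons: 8 of 8 were called higher in Tnfr2-/- than in WT cells with TNF+TGF-β, and, relative to Th0, WT TNF+TGF-β cells had 8 of 8 and IL-6+TGF-β cells 3 of 8 called lower. With every library scaled to the T cell genes Cd3e and Cd3g, a setting added after the data had been seen, 5, 2, 6 and 6 of the tested members were called in the 4 comparisons in turn, where 43.3%, 11.8%, 21.3% and 31.3% of all genes were called under that scaling. The comparisons share libraries, so their counts are not independent of each other.

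**Figure D1:**
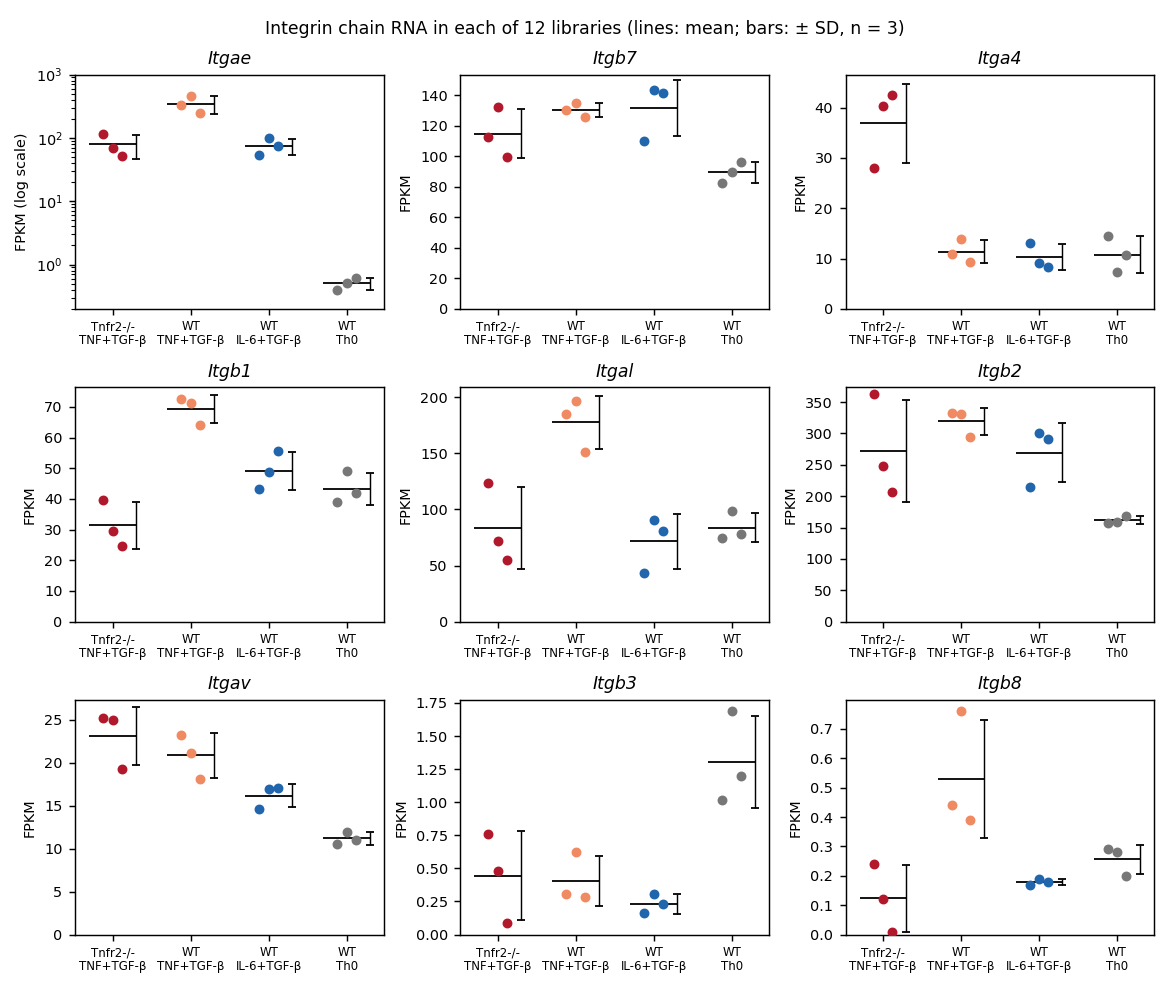
Level of each of the 9 integrin genes in FPKM (vertical axes; Itgae on a log scale) in each library, with groups along the horizontal axes; points are libraries, lines the mean and bars ± SD (n = 3). Itgae lies between 0.40 and 0.61 FPKM in Th0 libraries and at 51.96 FPKM or more in all others, and Itga4 is highest in the 3 Tnfr2-/- libraries.

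Itgae was nearly silent in Th0 cells and far higher in all groups given TGF-β, highest with TNF in WT cells. Its level was 116.11, 69.32 and 51.96 FPKM in Tnfr2-/- cells with TNF+TGF-β. WT cells with TNF+TGF-β had 324.83, 461.68 and 248.07 FPKM. WT cells with IL-6+TGF-β had 53.67, 97.75 and 75.24 FPKM, and Th0 cells 0.40, 0.51 and 0.61 FPKM. All 3 WT TNF+TGF-β libraries were above every other library, the Tnfr2-/- and IL-6+TGF-β libraries overlapped, and the Th0 libraries were far below. Even the Th0 values rested on an estimated 29 to 42 fragments per library. The gene (ENSMUSG00000005947.11) spans chr11:73090583-73147446 on the plus strand of GRCm38. Haspin lies within that span on the minus strand and shares no exon bases with it. Of the members described next, Itgb7 (chr15:102215995-102231944) and Itgb8 (chr12:119158022-119238802) lie on minus strands, and Itgb1 (chr8:128685654-128733200), Itgal (chr7:127296260-127335138), Itgb2 (chr10:77530252-77565708) and Itgb3 (chr11:104608000-104670476) on plus strands, with no overlapping gene annotated.

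Without TNFR2, Itgae fell to a mean of 79.1 ± 33.2 FPKM, against 345 ± 108 FPKM in WT cells with the same cytokines (SD, n = 3 each). The log2 difference was -2.14 ± 0.30 (SE; 95% interval -2.80 to -1.49; limma, adjusted p = 0.000219), and the ratio of the means was 0.229. Of the 6 T cell genes, 3 were called lower in these libraries and 3 (Cd3e, Cd3g and Zbtb7b) were not called, and a mixed sample cannot tell fewer cells of a type from less RNA per cell. Set against the geometric mean of Cd3e and Cd3g, Itgae stood at 24.4%, 19.9% and 19.1% in Tnfr2-/- libraries and at 67.1%, 83.7% and 48.7% in WT TNF+TGF-β libraries, still without overlap. With all genes scaled to those T cell genes, the log2 difference was -1.62 (adjusted p = 0.000142). Over all 19 alternative settings it ran from -2.46 to -1.62, with adjusted p from 7.45e-05 to 0.00397. Cd8a, whose product is carried by a T cell subset known for CD103, was lower too, with 29.04, 27.80 and 8.54 FPKM in Tnfr2-/- libraries and 183.56, 147.99 and 188.55 FPKM in WT TNF+TGF-β libraries. Itgae per Cd8a was 2.49 to 6.08 in Tnfr2-/- libraries and 1.32 to 3.12 in WT TNF+TGF-β libraries, ranges that overlapped. Cd4 was lower as well, with 17.63, 11.03 and 10.32 FPKM in Tnfr2-/- libraries and 42.32, 79.60 and 52.70 FPKM in WT TNF+TGF-β libraries, a ratio of means of 0.223 (log2 difference -2.07; limma, adjusted p = 0.0117). Itgae per Cd4 was 5.03 to 6.59 in Tnfr2-/- libraries and 4.71 to 7.68 in WT TNF+TGF-β libraries, ranges that overlapped. The part of CD4 and CD8 cells in the Itgae difference was not tested.

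Among WT cells, TNF+TGF-β gave more Itgae than IL-6+TGF-β did, at 345 ± 108 FPKM against 75.6 ± 22.0 FPKM (SD, n = 3 each). The ratio of means was 4.56 and the log2 difference 2.17 ± 0.30 (SE; limma, adjusted p = 0.000395). Cd8a did not separate these groups, at 147.99 to 188.55 FPKM with TNF+TGF-β and 142.43 to 193.95 FPKM with IL-6+TGF-β. Itgae per Cd8a was 1.32 to 3.12 with TNF+TGF-β and 0.277 to 0.686 with IL-6+TGF-β, without overlap. Cd4 did separate them, with 42.32, 79.60 and 52.70 FPKM in TNF+TGF-β libraries and 4.07, 25.20 and 14.14 FPKM in IL-6+TGF-β libraries, a ratio of means of 4.02 (log2 difference 2.18; limma, adjusted p = 0.0199). Itgae per Cd4 was 4.71 to 7.68 with TNF+TGF-β and 3.88 to 13.2 with IL-6+TGF-β, ranges that overlapped. Of the 8 B cell markers, 5 were called lower and 1 higher between these groups. The part of CD4 cells and of B cells in this Itgae difference was not tested. Itgae rose with TNF+TGF-β over Th0 cells, which had 0.507 ± 0.105 FPKM, by 7.80 ± 0.30 on the log2 scale (SE; limma, adjusted p = 1.28e-08), a ratio of means of 681. With IL-6+TGF-β the rise over Th0 was 5.63 ± 0.30 (SE; limma, adjusted p = 1.12e-07), a ratio of 149. E-cadherin, the CD103 ligand (Cdh1), stood at 0.17 to 0.64 FPKM in Tnfr2-/- cells, 0.32 to 0.84 FPKM in WT TNF+TGF-β cells, 0.28 to 1.04 FPKM in IL-6+TGF-β cells and at most 0.01 FPKM in Th0 cells.

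Itgb7, whose product is the β partner of CD103, varied far less than Itgae. It had 112.83, 132.20 and 99.75 FPKM in Tnfr2-/- cells, 130.56, 134.98 and 125.87 FPKM in WT TNF+TGF-β cells, 110.19, 143.42 and 141.31 FPKM in WT IL-6+TGF-β cells, and 82.38, 89.73 and 96.32 FPKM in Th0 cells. The 3 groups given TGF-β overlapped each other, and all their libraries were above all Th0 libraries. The rise over Th0 was 0.54 ± 0.14 on the log2 scale with TNF+TGF-β (SE; limma, adjusted p = 0.0103) and 0.54 ± 0.14 with IL-6+TGF-β (SE; adjusted p = 0.0123). The second call was lost without replicate 2 or 3 of IL-6+TGF-β or without replicate 1 of Th0, with adjusted p from 0.0524 to 0.0559. Tnfr2-/- and WT cells with TNF+TGF-β differed by -0.19 (95% interval -0.49 to 0.11; limma, adjusted p = 0.291), and the cytokine pairs in WT cells by 0.00 (95% interval -0.30 to 0.29; adjusted p = 0.99). Over all 19 alternative settings the difference between the genotypes ran from -0.32 to 0.34 and was never called. The part of B cells in the Itgb7 levels was not tested. Itgae per Itgb7 was thus 0.692 ± 0.293 in Tnfr2-/- cells, 2.63 ± 0.735 in WT TNF+TGF-β cells, 0.567 ± 0.102 in WT IL-6+TGF-β cells and 0.00562 ± 0.000737 in Th0 cells (SD, n = 3 each).

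Itga4, which encodes the other α partner of β7, went the opposite way to Itgae in the absence of TNFR2. Its level was 27.91, 40.28 and 42.42 FPKM in Tnfr2-/- cells and 10.83, 13.86 and 9.34 FPKM in WT cells with TNF+TGF-β. WT cells with IL-6+TGF-β had 13.16, 9.09 and 8.40 FPKM, and Th0 cells 14.47, 7.26 and 10.62 FPKM. All 3 Tnfr2-/- libraries were above every WT library, and the WT groups overlapped throughout. Itga4 was higher in Tnfr2-/- than in WT cells given TNF+TGF-β by 1.61 ± 0.25 on the log2 scale (SE; 95% interval 1.05 to 2.17; limma, adjusted p = 0.000506), a ratio of means of 3.25. Among WT groups the differences were 0.15 between TNF+TGF-β and IL-6+TGF-β (95% interval -0.41 to 0.70; limma, adjusted p = 0.772), 0.10 between TNF+TGF-β and Th0 (-0.46 to 0.65; adjusted p = 0.805) and -0.05 between IL-6+TGF-β and Th0 (-0.60 to 0.51; adjusted p = 0.92). Reads of Itga4 (ENSMUSG00000027009.18, chr2:79255426-79333123, plus strand) that fall on exon bases shared with the minus-strand gene Cerkl cannot be told from reads of that gene, because the library kit does not mark strand.

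The higher Itga4 stood beside B cell and myeloid RNA, and both cell types are known to carry the α4 chain. Besides the B cell markers, 5 of the 8 myeloid markers tested were called higher in Tnfr2-/- than in WT cells with TNF+TGF-β. Of these, Adgre1 would not have entered the test without the Tnfr2-/- libraries, so its call was largely set by the filter. Cd79a, a chain of the B cell receptor, ranged over 668 to 1638 FPKM in Tnfr2-/- libraries and over 76.5 to 123 FPKM in WT TNF+TGF-β libraries. Within the Tnfr2-/- group the library numbered 1 had the lowest B cell marker sum and the lowest Itga4, while its Lyz2, a myeloid gene, was the highest at 1310 FPKM against 178 FPKM in the library numbered 4. The part of these cells in the Itga4 difference was not tested. The share of Itgae in the summed RNA of both β7 partners, Itgae and Itga4, was 80.6%, 63.2% and 55.1% in Tnfr2-/- libraries, 96.8%, 97.1% and 96.4% in WT TNF+TGF-β, 80.3%, 91.5% and 90.0% in IL-6+TGF-β and 2.69%, 6.56% and 5.43% in Th0 libraries. It was highest in the WT TNF+TGF-β libraries and spread most among the Tnfr2-/- libraries.

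**Figure D2:**
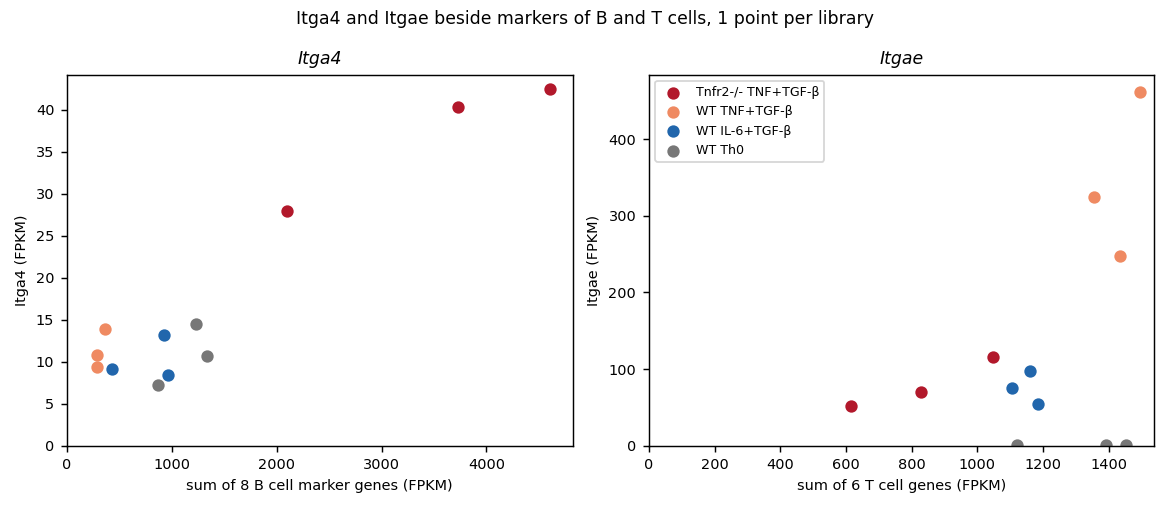
Itga4 (left, FPKM) against the summed FPKM of 8 B cell markers and Itgae (right, FPKM) against the summed FPKM of 6 T cell genes, 1 point per library, coloured by group. The Tnfr2-/- libraries lie at 2101 to 4605 FPKM of B cell markers and at 27.91 FPKM of Itga4 or more, apart from all WT libraries, and the WT TNF+TGF-β libraries hold the highest Itgae.

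Itgb1, the gene of the β1 chain that pairs with α4 and many other α chains, was highest in WT cells given TNF+TGF-β. It had 39.73, 29.65 and 24.83 FPKM in Tnfr2-/- cells, 72.48, 71.39 and 64.16 FPKM in WT TNF+TGF-β cells, 43.33, 48.69 and 55.60 FPKM in WT IL-6+TGF-β cells and 38.87, 49.02 and 42.02 FPKM in Th0 cells. The WT TNF+TGF-β libraries did not overlap those of any other group. Itgb1 was lower in Tnfr2-/- than in WT TNF+TGF-β cells by a log2 difference of -1.14 ± 0.17 (SE; 95% interval -1.51 to -0.78; limma, adjusted p = 0.000291), a ratio of means of 0.453. Scaled to Cd3e and Cd3g the difference was -0.63 (adjusted p = 0.0101). Over Th0 it rose with TNF+TGF-β by 0.67 ± 0.17 (SE; limma, adjusted p = 0.00996). With IL-6+TGF-β it differed from Th0 by 0.18 (95% interval -0.19 to 0.54; limma, adjusted p = 0.495), and scaled to the T cell genes by 0.63 (adjusted p = 0.0122).

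Between the cytokine pairs in WT cells, Itgb1 differed by 0.49 (95% interval 0.13 to 0.86), which missed the threshold (limma, adjusted p = 0.0803) although the libraries did not overlap. The same difference passed without the Tnfr2-/- library numbered 1 (adjusted p = 0.0326) or 4 (adjusted p = 0.0449), which enter the fit only through the spread. Scaled to the T cell genes it was 0.14 (adjusted p = 0.584). Itga4 per Itgb1 was 0.702, 1.36 and 1.71 in Tnfr2-/- libraries, against 0.146 to 0.194 in WT TNF+TGF-β, 0.151 to 0.304 in IL-6+TGF-β and 0.148 to 0.372 in Th0 libraries. The RNA of the α4 chain was thus above that of β1 in 2 of the 3 Tnfr2-/- libraries and below it in every WT library.

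The LFA-1 genes split: Itgal, for the αL chain, followed the WT TNF+TGF-β condition, and Itgb2, for the β2 chain, was raised over Th0 by both cytokine pairs. Itgal had 123.99, 71.78 and 54.67 FPKM in Tnfr2-/- cells, 184.79, 196.44 and 151.50 FPKM in WT TNF+TGF-β cells, 43.60, 90.47 and 80.64 FPKM in WT IL-6+TGF-β cells and 74.79, 99.06 and 77.77 FPKM in Th0 cells. Every WT TNF+TGF-β library was above every library of the other groups, which overlapped each other. Of the cytokine pairs in WT cells, TNF+TGF-β gave the higher Itgal, by 1.36 ± 0.30 on the log2 scale (SE; 95% interval 0.70 to 2.02; limma, adjusted p = 0.0101), a ratio of means of 2.48. Its rise over Th0 with TNF+TGF-β was 1.08 ± 0.30 (SE; limma, adjusted p = 0.0183). That call was lost, with log2 differences of 1.00 to 1.04 and adjusted p from 0.0563 to 0.0669, without replicate 1 or 2 of WT TNF+TGF-β or without replicate 1 or 3 of Th0. With IL-6+TGF-β, Itgal differed from Th0 by -0.28 (95% interval -0.94 to 0.38; limma, adjusted p = 0.56).

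Itgal was lower in Tnfr2-/- than in WT cells given TNF+TGF-β, at 83.5 ± 36.1 FPKM against 178 ± 23.3 FPKM (SD, n = 3 each). The log2 difference was -1.16 ± 0.30 (SE; 95% interval -1.82 to -0.49; limma, adjusted p = 0.0111). Without the Tnfr2-/- library numbered 4 it was -0.90 and just missed the threshold (adjusted p = 0.0502). Per Cd3e and Cd3g, Itgal stood at 26.1%, 20.6% and 20.1% in Tnfr2-/- libraries and at 38.2%, 35.6% and 29.8% in WT TNF+TGF-β libraries, again without overlap. Scaled in this way the log2 difference was -0.63 (adjusted p = 0.0402).

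Itgb2 had the highest level of all members in 11 of the 12 libraries, WT TNF+TGF-β replicate 2 with its higher Itgae being the exception, and exceeded Itgal in every one. It had 363.08, 247.40 and 206.12 FPKM in Tnfr2-/- cells, 332.19, 331.47 and 295.10 FPKM in WT TNF+TGF-β cells, 214.95, 301.00 and 291.66 FPKM in WT IL-6+TGF-β cells and 157.16, 158.56 and 169.23 FPKM in Th0 cells. All libraries with TGF-β were above all Th0 libraries and overlapped each other. Itgb2 rose over Th0 by 0.98 ± 0.19 on the log2 scale with TNF+TGF-β (SE; limma, adjusted p = 0.0023) and by 0.72 ± 0.19 with IL-6+TGF-β (SE; adjusted p = 0.0168). The second call was lost without replicate 2 or 3 of IL-6+TGF-β or without replicate 1 of Th0, with adjusted p from 0.0551 to 0.0667. Tnfr2-/- and WT cells given TNF+TGF-β differed by -0.27 (95% interval -0.68 to 0.15; limma, adjusted p = 0.286). Without the Tnfr2-/- library numbered 1, which has the highest myeloid markers and the highest Itgb2, that difference was -0.50 and passed (adjusted p = 0.0274), while scaled to the T cell genes it was 0.26 (adjusted p = 0.248). Between the cytokine pairs in WT cells it was 0.26 (95% interval -0.15 to 0.68; limma, adjusted p = 0.439). Itgal per Itgb2 was 0.265 to 0.341 in Tnfr2-/- libraries, 0.513 to 0.593 in WT TNF+TGF-β, 0.203 to 0.301 in IL-6+TGF-β and 0.46 to 0.625 in Th0 libraries.

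**Figure D3:**
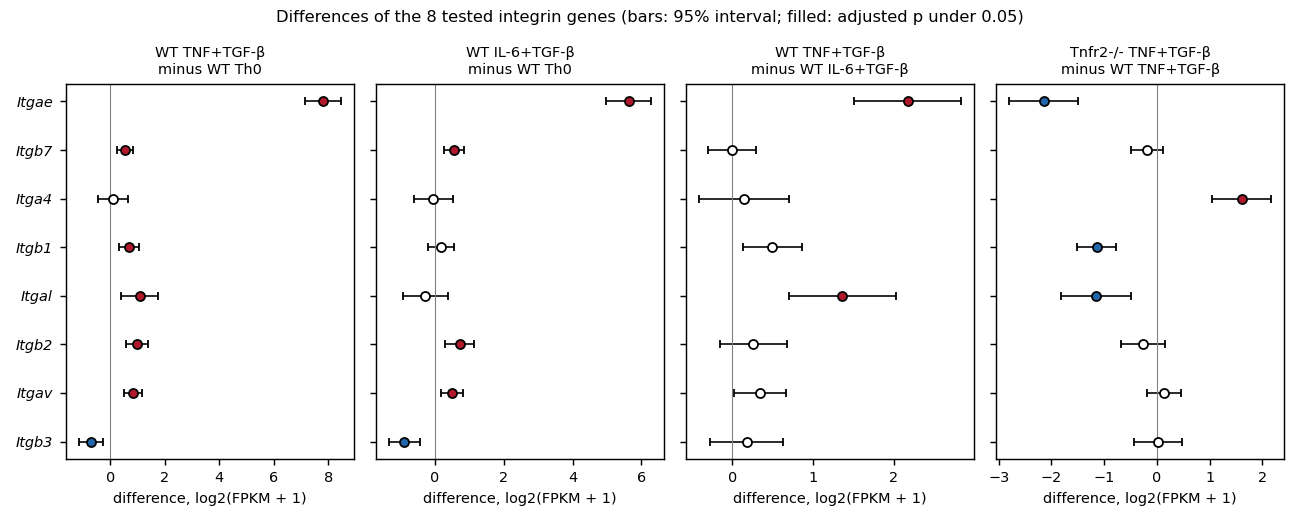
Difference of each of the 8 tested integrin genes (vertical axis) in 4 comparisons, in log2(FPKM + 1) on the horizontal axes; bars are 95% intervals and filled points have an adjusted p under 0.05 (red higher, blue lower). Itgae is the farthest from 0 in every panel, and the Tnfr2-/- panel shows Itga4 at 1.61 opposite Itgae at -2.14, Itgal at -1.16 and Itgb1 at -1.14.

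Itgav, for the αV chain, was higher wherever TGF-β was added. It had 25.17, 24.91 and 19.22 FPKM in Tnfr2-/- cells, 23.26, 21.16 and 18.11 FPKM in WT TNF+TGF-β cells, 14.58, 16.93 and 17.01 FPKM in WT IL-6+TGF-β cells and 10.55, 11.99 and 11.02 FPKM in Th0 cells. The Tnfr2-/- and WT TNF+TGF-β libraries overlapped, all of them were above the IL-6+TGF-β libraries, and those were above all Th0 libraries. The rise over Th0 was 0.84 ± 0.15 on the log2 scale with TNF+TGF-β (SE; limma, adjusted p = 0.00114) and 0.49 ± 0.15 with IL-6+TGF-β (SE; adjusted p = 0.0286). The second call was lost without replicate 2 or 3 of IL-6+TGF-β or without replicate 1 or 3 of Th0, with adjusted p from 0.0873 to 0.0992. Between the cytokine pairs in WT cells the difference was 0.34 (95% interval 0.02 to 0.66; limma, adjusted p = 0.164). Tnfr2-/- and WT cells given TNF+TGF-β differed by 0.14 (95% interval -0.18 to 0.46; limma, adjusted p = 0.483), or by 0.65 when scaled to the T cell genes (adjusted p = 0.016). Itgav (ENSMUSG00000027087.11, chr2:83724397-83806916, plus strand) shares exon bases with the minus-strand gene Gm13684, and reads on those bases cannot be assigned to either.

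Among the β chains known to pair with αV, those of Itgb3 and Itgb8 were scarce. Itgb3 had 0.76, 0.48 and 0.09 FPKM in Tnfr2-/- cells, 0.31, 0.62 and 0.28 FPKM in WT TNF+TGF-β cells, 0.16, 0.31 and 0.23 FPKM in WT IL-6+TGF-β cells and 1.02, 1.69 and 1.20 FPKM in Th0 cells. It was highest in the 3 Th0 libraries, and the groups with TGF-β overlapped. It was lower than in Th0 with TNF+TGF-β (log2 difference -0.71 ± 0.21, SE; limma, adjusted p = 0.021) and with IL-6+TGF-β (-0.89 ± 0.21, SE; adjusted p = 0.00827). Having passed the filter through Th0 alone, Itgb3 could hardly be other than lower in the other groups. The call with TNF+TGF-β was lost with a pseudocount of 0.1, where the difference was -1.51 (adjusted p = 0.0655), with scaling to T cell genes (-0.60, adjusted p = 0.0558), and without WT TNF+TGF-β replicate 1 or 3 or Th0 replicate 2 or 3 (-0.74 to -0.60, adjusted p from 0.0516 to 0.0753). The cytokine pairs differed by 0.18 (adjusted p = 0.638) and Tnfr2-/- from WT cells by 0.02 (adjusted p = 0.948). These levels stood for an estimated 8 to 78 fragments in Tnfr2-/-, 33 to 78 in WT TNF+TGF-β, 19 to 41 in IL-6+TGF-β and 112 to 192 in Th0 libraries.

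Itgb8, for the β8 chain, had 0.24, 0.12 and 0.01 FPKM in Tnfr2-/- cells, 0.44, 0.76 and 0.39 FPKM in WT TNF+TGF-β cells, 0.17, 0.19 and 0.18 FPKM in WT IL-6+TGF-β cells and 0.29, 0.28 and 0.20 FPKM in Th0 cells. All 3 WT TNF+TGF-β libraries were above the other 9. The estimated fragments behind these values were 1 to 36 in Tnfr2-/-, 68 to 140 in WT TNF+TGF-β, 30 to 37 in IL-6+TGF-β and 31 to 47 in Th0 libraries. In a fit without the filter on low values, over 24076 genes, Itgb8 was lower in Tnfr2-/- than in WT TNF+TGF-β cells by a log2 difference of -0.44 ± 0.10 (SE; limma, adjusted p = 0.0092) and, in WT cells, higher in TNF+TGF-β than in IL-6+TGF-β cultures by 0.37 ± 0.10 (SE; adjusted p = 0.0479). It missed the threshold against Th0 with TNF+TGF-β (0.28, adjusted p = 0.0813) and with IL-6+TGF-β (-0.09, adjusted p = 0.683).

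Tnfr2-/- cells with TNF+TGF-β were also set against WT Th0 cells, from which they differ in genotype and cytokines together, so that the effects of each cannot be told apart. Of the 8 tested members 7 were called, 5 higher and 2 lower, where 48.1% of all genes were called, 29.0% higher and 19.1% lower. Itgae was higher by 5.66 ± 0.30 on the log2 scale (SE; limma, adjusted p = 2.11e-07), a ratio of means of 156, and Itga4 by 1.71 ± 0.25 (SE; adjusted p = 0.000248). Itgav was higher by 0.98 (limma, adjusted p = 0.000251) and Itgb2 by 0.71 (adjusted p = 0.00908), and Itgb3, which entered the test only through the Th0 libraries and so had to be low here, was at a log2 difference of -0.69 (adjusted p = 0.0159). Without Th0 replicate 2 the count was 4, all higher, as Itgb7, Itgb1 and Itgb3 then missed the threshold. Itgb7 at 0.35 was at the edge of the threshold (limma, adjusted p = 0.0499) and lost its call under 15 of 19 alternatives, with adjusted p over all 19 from 0.00117 to 0.216. Itgb1 was lower by a log2 difference of -0.47 (limma, adjusted p = 0.0354), with overlapping libraries, and turned to 0.15 (adjusted p = 0.471) with scaling to T cell genes. Itgal differed by -0.08 (95% interval -0.74 to 0.58; limma, adjusted p = 0.849).

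Taken as shares of summed FPKM, the 4 α chains among the members differed between the groups far more than the 5 β chains, Itgae most of all. Itgae made up 34.7% ± 4.45 of the RNA of the 4 α chain genes in Tnfr2-/- cells, 61.5% ± 4.52 in WT TNF+TGF-β cells, 43.3% ± 2.08 in WT IL-6+TGF-β cells and 0.479% ± 0.114 in Th0 cells (SD, n = 3 each). Itgal made up 36.5% ± 5.12, 32.6% ± 3.80, 40.5% ± 5.01 and 78.6% ± 4.45 in the same order of groups. Itga4 was the third of these 4 in Tnfr2-/- cells at 18.1% ± 7.94, against 2.06% ± 0.113 in WT TNF+TGF-β, 6.46% ± 3.51 in IL-6+TGF-β and 10.4% ± 4.15 in Th0 cells. The shares leave out Itga6, not a member, which was near Itga4 in Tnfr2-/- cells (mean 35.5 against 36.9 FPKM). Itga6 averaged 21.3, 17.9 and 14.9 FPKM in WT TNF+TGF-β, IL-6+TGF-β and Th0 cells, above Itga4 in each. Among the 5 β chain genes, Itgb2 held 64.3% ± 5.25 in Tnfr2-/-, 61.4% ± 0.656 in WT TNF+TGF-β, 59.6% ± 1.35 in IL-6+TGF-β and 54.7% ± 1.60 in Th0 cells, and Itgb7 came second everywhere at mean shares of 25.1% to 30.2%. Itgb1 held 7.48% ± 0.232 of the β chain RNA in Tnfr2-/- cells, against 13.3% ± 0.173 in WT TNF+TGF-β, 11% ± 0.987 in IL-6+TGF-β and 14.6% ± 1.54 in Th0 cells. Shares of RNA are not shares of protein pairs, and a share falls when another chain rises.

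**Figure D4:**
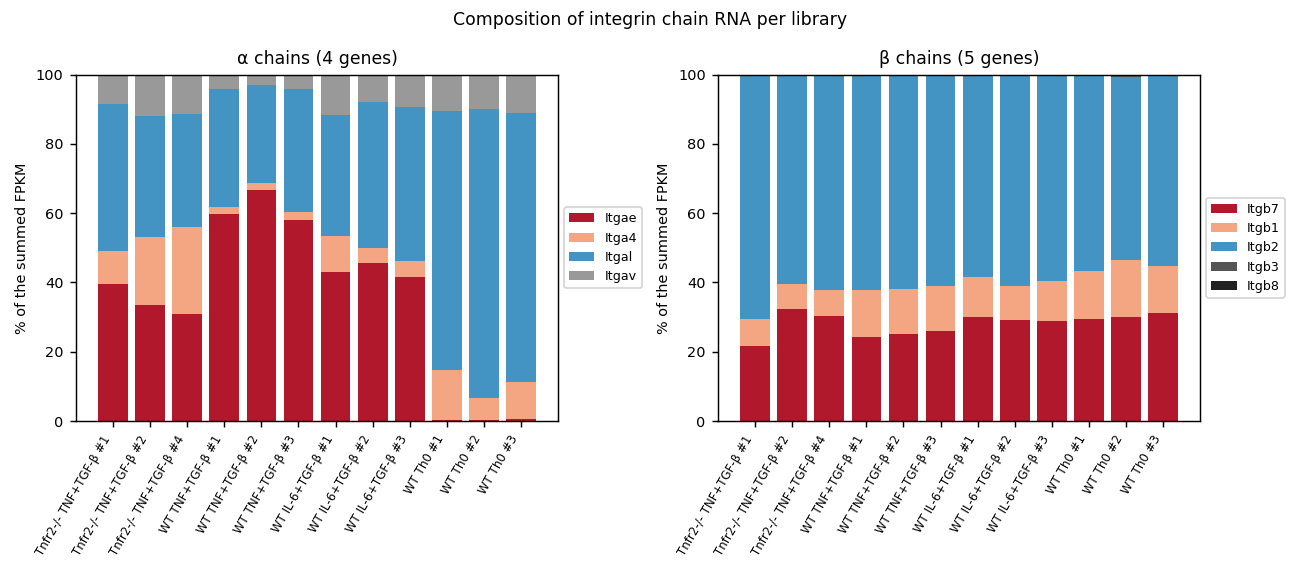
Share of each chain gene in the summed FPKM of the 4 α chain genes (left) and the 5 β chain genes (right), in percent, 1 bar per library. Itgae takes 58.1% to 66.6% of the α chain RNA in WT TNF+TGF-β libraries and 0.399% to 0.61% in Th0 libraries, while Itgb2 leads the β chains in all 12.

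Over the 12 libraries, the log2 levels of Itgae went with those of Itgb2 (Pearson r = 0.92), Itgav (r = 0.85) and Itgb7 (r = 0.84) and against Itgb3 (r = -0.73). Itga4 ran against Itgb1 (r = -0.76), and Itgb1 with Itgal (r = 0.76). The non-member genes most like Itgae were Atp1b1 (r = 0.989), Maged2 (r = 0.988), Tmem51 (r = 0.986), the chemokine receptor gene Ccr8 (r = 0.985) and Padi2 (r = 0.984). Ccr8 averaged 293 FPKM in Tnfr2-/-, 519.5 FPKM in WT TNF+TGF-β, 273 FPKM in IL-6+TGF-β and 18.5 FPKM in Th0 cells, the same order of groups as Itgae. Itga4 was most like Ctss (r = 0.988), a lysosomal protease gene of antigen-presenting cells, at means of 685 FPKM in Tnfr2-/-, 290.4 FPKM in WT TNF+TGF-β, 268 FPKM in IL-6+TGF-β and 271 FPKM in Th0 cells. The closest genes to the other members were Als2cl for Itgb7 (r = 0.943), Nt5dc2 for Itgb1 (r = 0.971), St3gal2 for Itgal (r = 0.986), Rgs16 for Itgb2 (r = 0.974), Dtx4 for Itgav (r = 0.961) and Ly6i for Itgb3 (r = 0.962). These coefficients describe points that fall into 4 groups and share libraries and scaling. The genes named are the best among the 13082 tested genes after some were left out. Those were the members, predicted genes, genes named by an accession, and immunoglobulin and T cell receptor genes.

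Among the 17 other integrin chain genes, 8 were tested. In Tnfr2-/- against WT TNF+TGF-β cells 2 were higher and 2 lower (median 0.41, against 0.00 for all genes): Itga2b, the platelet chain, by 0.76 (limma, adjusted p = 0.00697) and the laminin receptor chain Itga6 by 0.70 (adjusted p = 0.0313) were higher, and Itgax, for CD11c, at -1.13 (adjusted p = 0.016) and the fibronectin receptor chain Itga5 at -0.84 (adjusted p = 0.032) were lower. Between TNF+TGF-β and IL-6+TGF-β in WT cells 1 was higher, Itga5 by 1.04 (limma, adjusted p = 0.0266), and 1 lower, the laminin receptor chain Itga3 at -1.26 (adjusted p = 0.0015). Itga5 averaged 4.52 ± 1.98 FPKM in Tnfr2-/-, 8.56 ± 1.45 FPKM in WT TNF+TGF-β, 3.78 ± 1.41 FPKM in IL-6+TGF-β and 1.69 ± 0.355 FPKM in Th0 cells (SD, n = 3 each). Against Th0, 2 were higher and 1 lower with each pair: Itga5 (1.83, adjusted p = 0.000407) and Itgax (1.57, adjusted p = 0.00312) rose with TNF+TGF-β, Itga3 (1.56, adjusted p = 0.00018) and Itga2b (0.57, adjusted p = 0.0408) with IL-6+TGF-β, and Itga9 fell with both (-1.41 and -1.05). Itgax and Itga2b are also markers of dendritic cells and platelets. Itga2b would not have entered the test without the Tnfr2-/- libraries, Itga9 without Th0 and Itgax without WT TNF+TGF-β. Calls with that group as the higher one were thus largely set by the filter. The share of all genes called was 37.4% between the genotypes with TNF+TGF-β and 12.8% between the cytokine pairs. Over Th0 it was 31.7% with TNF+TGF-β and 23.2% with IL-6+TGF-β.

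Integrin ligands made by the cultured cells themselves were tested for 9 of 12 genes. Of these, 2 were higher and 5 lower in Tnfr2-/- than in WT TNF+TGF-β cells (median -0.62, against 0.00 for all genes), and between the cytokine pairs in WT cells TNF+TGF-β had 3 of them higher and 2 lower (0.12, against 0.00). Madcam1, whose product is the ligand of α4β7, averaged 0.983 ± 0.153 FPKM in Tnfr2-/-, 9.74 ± 3.35 FPKM in WT TNF+TGF-β, 0.37 ± 0.168 FPKM in IL-6+TGF-β and 1.12 ± 0.547 FPKM in Th0 cells (SD, n = 3 each). It was lower in Tnfr2-/- than in WT TNF+TGF-β cells (-2.39; limma, adjusted p = 2.9e-05) and, in WT cells, higher in TNF+TGF-β than in IL-6+TGF-β (2.93, adjusted p = 7.76e-06) or Th0 cultures (2.33, adjusted p = 2.81e-05). Vcam1, the ligand of α4β1, had 6.29, 2.60 and 0.35 FPKM in Tnfr2-/- cells and 9.33, 16.14 and 7.46 FPKM in WT TNF+TGF-β cells (-1.80; limma, adjusted p = 0.0114), against 0.25 to 0.62 FPKM in IL-6+TGF-β cells. Without the WT TNF+TGF-β libraries Vcam1 would not have entered the test, so the filter favoured the direction of that call. Tgfb1, held latent until αV integrins release it, averaged 110 ± 52.9 FPKM in Tnfr2-/-, 316 ± 37.9 FPKM in WT TNF+TGF-β, 120 ± 60.6 FPKM in IL-6+TGF-β and 107 ± 29.5 FPKM in Th0 cells (Tnfr2-/- against WT, -1.61; adjusted p = 0.0102), and Tgfb3 was higher without TNFR2 (1.94, adjusted p = 0.000739). Against Th0, 3 ligand genes rose and 2 fell with TNF+TGF-β, and 1 rose and 2 fell with IL-6+TGF-β. The fall of Spp1, for osteopontin, was seen with both (-2.65, adjusted p = 3.59e-05, with TNF+TGF-β and -1.54, adjusted p = 0.00223, with IL-6+TGF-β). Beside these ligand counts, 37.4% of all genes were called between the genotypes with TNF+TGF-β and 12.8% between the cytokine pairs. The shares over Th0 were 31.7% with TNF+TGF-β and 23.2% with IL-6+TGF-β.

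Of 26 genes for integrin activators and adaptors, 24 were tested, and 6 were higher and 8 lower in Tnfr2-/- than in WT TNF+TGF-β cells (median -0.09, against 0.00 for all genes). Fermt1, which encodes kindlin-1, a protein that binds β chain tails, had 0.41, 0.22 and 0.00 FPKM in Tnfr2-/- cells, 5.64, 8.70 and 6.64 FPKM in WT TNF+TGF-β cells and 1.90, 0.69 and 0.48 FPKM in WT IL-6+TGF-β cells, and was listed at 0 in all Th0 libraries. It was lower without TNFR2 (-2.72; limma, adjusted p = 1.6e-05) and, in WT cells, higher in TNF+TGF-β than in IL-6+TGF-β cultures (2.03, adjusted p = 0.000178). Fermt1 would not have entered the test without the WT TNF+TGF-β libraries, so the direction of these calls was largely set by the filter. Rasgrp2, whose product switches on Rap1 upstream of integrins, went the other way: 119 ± 45.3 FPKM in Tnfr2-/-, 13.3 ± 2.48 FPKM in WT TNF+TGF-β, 47.1 ± 15.6 FPKM in IL-6+TGF-β and 42.7 ± 8.27 FPKM in Th0 cells (SD, n = 3 each; Tnfr2-/- against WT, 3.00, adjusted p = 3.32e-05). The adaptor gene Skap2 was also higher without TNFR2 (1.32; limma, adjusted p = 2.69e-05), and Zyx, for the adhesion protein zyxin, lower (-1.37, adjusted p = 0.00603). Between the cytokine pairs in WT cells 5 were higher and 3 lower (median 0.16, against 0.00). Against Th0, TNF+TGF-β cells had 11 higher and 3 lower (0.56, against 0.07), and IL-6+TGF-β cells 7 higher and 1 lower (0.24, against 0.04). Rasgrp2 and Skap2 moved with B cell and myeloid markers across the genotypes, whose part was not tested. Skap2 averaged 24.7 FPKM in Tnfr2-/-, 9.32 FPKM in WT TNF+TGF-β, 31.8 FPKM in IL-6+TGF-β and 15.6 FPKM in Th0 cells. It was thus highest with IL-6+TGF-β, the group with the lowest myeloid marker sums and with B cell sums above those of WT TNF+TGF-β. Between the cytokine pairs in WT cells the Skap2 difference was -1.67 (limma, adjusted p = 5.85e-06). For these comparisons the shares of all genes called were 37.4% between the genotypes and 12.8% between the cytokine pairs. Against Th0 they were 31.7% with TNF+TGF-β and 23.2% with IL-6+TGF-β.

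Of 14 genes for CD103 regulators and the TGF-β response, 13 were tested. With TNF+TGF-β 7 were higher than in Th0 and 0 lower (median 1.31, against 0.07 for all genes), and with IL-6+TGF-β 8 were higher and 0 lower (1.27, against 0.04). Tgfbr1, for the type I TGF-β receptor, averaged 39.6 ± 10.8 FPKM in Tnfr2-/-, 46.7 ± 4.33 FPKM in WT TNF+TGF-β, 18.8 ± 3.72 FPKM in IL-6+TGF-β and 2.17 ± 0.146 FPKM in Th0 cells (SD, n = 3 each). It rose over Th0 by 3.91 with TNF+TGF-β (limma, adjusted p = 7.23e-08) and was the 1 gene of the list called between the cytokine pairs (1.28, adjusted p = 0.000739). Smad7, Ski and Skil, which encode feedback inhibitors of TGF-β signalling, rose over Th0 by 2.96, 2.5 and 1.96 with TNF+TGF-β and by 2.55, 1.98 and 2.17 with IL-6+TGF-β, with adjusted p of 0.00256 or less. Between Tnfr2-/- and WT TNF+TGF-β cells 2 were higher and 1 lower (median 0.07, against 0.00), and 1 of the higher genes, Prdm1, entered the test only through the Tnfr2-/- libraries. The lower one was Runx3, for a factor known to bind the Itgae locus in CD8 T cells, with 2.63, 3.83 and 2.53 FPKM in Tnfr2-/- cells and 6.68, 11.68 and 8.94 FPKM in WT cells (-1.32; limma, adjusted p = 0.0153). Smad7 and Tgfbr1 did not pass there (-0.16, adjusted p = 0.777, and -0.26, adjusted p = 0.315). Called among all genes were 31.7% for TNF+TGF-β and 23.2% for IL-6+TGF-β against Th0. Between the cytokine pairs 12.8% of all genes were called, and 37.4% between the genotypes with TNF+TGF-β.

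Of 7 genes for handling of latent TGF-β, 4 were tested, and 1 was higher and 2 lower in Tnfr2-/- than in WT TNF+TGF-β cells (median -0.99, against 0.00 for all genes). The lower ones were Tgfb1 and Lrrc32, whose product GARP holds latent TGF-β on the cell surface (-1.23; limma, adjusted p = 0.0386), and Nrros, its counterpart on myeloid cells, was higher (1.33, adjusted p = 0.000117). Between TNF+TGF-β and IL-6+TGF-β in WT cells Tgfb1 alone was called, higher (median 0.81, against 0.00). Against Th0, TNF+TGF-β cells had 3 higher and 1 lower (2.12, against 0.07), and IL-6+TGF-β cells 2 higher and 1 lower (0.78, against 0.04). Furin, for the protease that cuts the TGF-β precursor, rose with both (2.76, adjusted p = 0.0011, and 3.19, adjusted p = 0.000427). Shares called over all genes were 37.4% between the genotypes with TNF+TGF-β and 12.8% between the cytokine pairs. Over Th0, 31.7% of all genes were called with TNF+TGF-β and 23.2% with IL-6+TGF-β.

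Genes of tissue residency and recirculation, of which 11 of 13 were tested, went in both directions beside CD103. Between Tnfr2-/- and WT TNF+TGF-β cells 5 were higher and 4 lower (median 0.03, against 0.00 for all genes). The egress receptor gene S1pr1 averaged 254 ± 79.3 FPKM in Tnfr2-/-, 31.8 ± 9.71 FPKM in WT TNF+TGF-β, 81.8 ± 18.2 FPKM in IL-6+TGF-β and 21.5 ± 5.97 FPKM in Th0 cells (SD, n = 3 each; Tnfr2-/- against WT, 2.95; limma, adjusted p = 1.79e-05). Rgs2 was also higher without TNFR2 (2.16, adjusted p = 4.48e-05), and Xcl1 (-1.45, adjusted p = 0.0049) and Ahr (-1.21, adjusted p = 0.00369) were lower. S1pr1 is also carried by B cells, whose part was not tested. Between TNF+TGF-β and IL-6+TGF-β in WT cells 0 were higher and 3 lower, among them S1pr1 (-1.35; limma, adjusted p = 0.00679) and Ahr (-0.91, adjusted p = 0.0369), with a list median of -0.35 against 0.00. Against Th0, TNF+TGF-β cells had 3 higher and 2 lower (0.09, against 0.07), and IL-6+TGF-β cells 5 higher and 0 lower (0.24, against 0.04). Over all genes, 31.7% and 23.2% were called against Th0 with these pairs in turn. The share was 37.4% between the genotypes with TNF+TGF-β and 12.8% between the cytokine pairs. Cd101, Ahr and Cxcr6, genes known from CD103-bearing resident cells, rose over Th0 by 4.60, 2.89 and 2.80 with TNF+TGF-β and by 4.59, 3.80 and 3.40 with IL-6+TGF-β (limma, adjusted p of 1.57e-05 or less). Neither Cd69 (0.09 and -0.43) nor Rgs1 (-0.48 and -0.45), of the same list, was called against Th0 under these pairs in turn. S1pr1 exceeded its Th0 level by 1.90 under IL-6+TGF-β (limma, adjusted p = 0.0004). Under TNF+TGF-β it was not called (0.54, adjusted p = 0.162).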

How the data were processed

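Per the submitters' processing notes, the reads went through Trimmomatic, STAR 2.5.4 and RSEM 1.3.1 on mm10. The cDNA and library kits named in the labels' protocols do not mark strand. The authors deposited 1 value per gene and library, and per the file headers these are gene-level RSEM results. They were read as FPKM made by the authors, since library sums differed (689045 to 828161) while each value times transcript length in kilobases summed to 900467 to 1010096. The design allowed for counts or FPKM, and its FPKM branch was used. A column numbered 4 in the Tnfr2-/- group, whose labels carry 1 to 3, was used as a member of its group only. Gene positions are from GENCODE M21 (GRCm38), in which 99.1% of identifiers were found.

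The 13082 genes that reached 1 FPKM in 3 or more libraries were fitted as log2(FPKM + 1) with limma 3.58.1 in R 4.3.3, with a mean-dependent variance prior and 1 mean per group over all 12 libraries. P-values were adjusted by Benjamini-Hochberg within each of 5 comparisons. Differences on this scale understate changes of low genes. The script was tested on simulated data. Depth is not given and was estimated from the steps of low FPKM of 8697 genes of 800 to 3000 bases after 300 bases were subtracted, with 79.7% to 89.9% of values within 0.2 of a whole multiple. At that depth 3 fragments on 1 kilobase are 0.126 to 0.18 FPKM, which covers counting error only. Estimated fragments of single genes use the longest transcript.

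The members and the 6 gene lists were chosen with earlier results of these data known. All members are named, with the genes most correlated to them and up to 4 called genes of a list per comparison, except results of some genes that are not reported here. Alternatives were a pseudocount of 0.1, no filter, TPM or median-ratio scaling, only the groups compared, the replicate number as a block, each library left out, and, added after the data had been seen, scaling to the geometric mean of Cd3e and Cd3g.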

Additional observations from a re-analysis of the deposited data

How the results depend on the processing

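Counts of called members were within 1.5 times the values reported under every alternative other than leaving out a library. Leaving out 1 library gave 3 to 5 called members between Tnfr2-/- and WT cells with TNF+TGF-β, 2 to 3 between the cytokine pairs, 5 to 7 between TNF+TGF-β and Th0, 2 to 5 between IL-6+TGF-β and Th0, and 4 to 7 between Tnfr2-/- cells and Th0. The count of 2 (Itgae and Itgb3) came without IL-6+TGF-β replicate 2 or 3 or Th0 replicate 1, and the count of 4 without Th0 replicate 2, and the cause was not tested. Of the 40 differences of a member in a comparison, the 6 settings of scaling, filter, pseudocount and samples kept direction and side of the threshold in 35 to 39. The 1 reversal was Itgb1 between Tnfr2-/- cells and Th0, at 0.15 with scaling to T cell genes.

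Numbers shared by libraries were not accepted as pairing: same-numbered WT libraries correlated at -0.03 to 0.34 in their deviations from the group means, above 0.1 in 5 of 9 pairs. Differently numbered WT libraries correlated at -0.34 to 0.18, above 0.1 in 3 of 18 pairs. Same-numbered WT pairs were thus somewhat more alike, and the reason was not tested. With the replicate number as a block, 3, 2, 7 and 5 members were called in the 4 main comparisons in the order above, and 5 between Tnfr2-/- cells and Th0. Over all genes the block gave 1900 higher and 1353 lower calls between Tnfr2-/- and WT cells, against 2608 and 2290 without it. Itgal lost its call there (-0.91, adjusted p = 0.0863), as Itgb1 and Itgb3 did between Tnfr2-/- cells and Th0.

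Scaling changed the share of higher calls among all genes: between Tnfr2-/- and WT cells with TNF+TGF-β it was 53.2%, or 42.5% (TPM, median shifted by -0.11) and 84.2% (T cell genes, median shifted by 0.46). Between the cytokine pairs it was 57.1%, or 31.8% with T cell genes (shift -0.30). For TNF+TGF-β against Th0 it was 58.9%, or 72.5% (TPM, shift 0.16), 48.2% (median-ratio) and 75.6% (T cell genes). For IL-6+TGF-β against Th0 it was 60.6%, or 89.7% with T cell genes (shift 0.39), and for Tnfr2-/- cells against Th0 60.4%, or 49.1% (median-ratio) and 89.7% (T cell genes, shift 0.53). Itgb3 and Itgb8 rest on few fragments, which limits what can be said of them.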
